A study of Mus musculus with 6 samples.

Results

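Complex III, complex IV and ATP synthase carry out the last steps of oxidative phosphorylation in the inner mitochondrial membrane. Their nuclear-encoded subunits were read here as 38 genes fixed by name, of 17447 gene rows in the table: 9 of complex III, 14 of complex IV and 15 of ATP synthase. Of these, 37 were found under the listed symbol, and Atp5f1 was found under its RefSeq synonym Atp5pb. Total RNA had been sequenced from hearts of wild-type mice, all with the same batch label. The sham group (3 hearts) had anaesthesia, laparotomy and exposure of the kidneys without removal of tissue. The chronic kidney disease (CKD) group (3 hearts) had subtotal nephrectomy, in which both poles of the left kidney and later the whole right kidney are removed. The labels give no age, sex, time of collection or heart chamber. The labels do not say that the samples of a group are separate animals, so the spread given below is that between these samples.

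Complex III passes electrons from ubiquinol to cytochrome c, complex IV passes them on to oxygen, and both pump protons out of the matrix. ATP synthase lets the protons return and uses their flow to join ADP and phosphate. The heart depends on this route for nearly all of its ATP. Several complex IV subunits exist as a ubiquitous form and a form made mainly in heart and skeletal muscle. The catalytic core of complex IV, the cytochrome b subunit of complex III and part of the membrane sector of ATP synthase are encoded in mitochondrial DNA. The 13 genes of mitochondrial DNA on the fixed list matched no row (0 of 13) and were not analysed here. The column totals behind the CPM and shares below therefore hold no counts under these names.

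Row labels were checked before any value was read. Sham columns ranked the 17447 rows alike (Spearman correlation 0.982 to 0.985 over 3 pairs). The correlation lay between -0.0586 and -0.0528 when a sham column was set against a CKD column (9 pairs). The members stood at a median percentile of 99.0 among all rows in sham and 52.4 in the CKD columns. The row of Uqcrc1, a core subunit of complex III, held 15959, 17439 and 20944 counts in sham 1, 2 and 3 and 1, 0 and 0 counts in the CKD columns. The row of Atp5c1, the central shaft of ATP synthase, gave 14052, 14484 and 15581 counts in the sham hearts against 1838, 1912 and 2671 under CKD. Values and labels do not correspond between the groups, so no CKD value is used and no comparison of CKD with sham is made. The genes are described in the sham hearts alone, as counts and as CPM (the count divided by the column total, times 1000000), mean ± SD over 3 hearts. Column totals were 10474487 to 12669724 counts in sham. With 3 samples of 1 group there is no test.

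Upstream sequences of a few members are shown first, so that the isoforms of the Cox7a and Cox8 pairs can be read beside their levels. Of the 38 members, 28 matched by symbol in the RefSeq promoter table (GRCm38.p6), and the 250 bases before each listed start site were read, 5′ to 3′ on the gene's strand. Cox6a2, Cox4i1 and Cox4i2 were among the 10 members not searched. The 4 sequences that follow belong to a muscle form and its ubiquitous partner at the Cox7a and Cox8 positions of complex IV, whose levels are compared below. Capitals mark the letters CANNTG (the E-box, bound by myogenic and other helix-loop-helix factors).

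Cox7a1, chr7:30183921-30184170, plus strand: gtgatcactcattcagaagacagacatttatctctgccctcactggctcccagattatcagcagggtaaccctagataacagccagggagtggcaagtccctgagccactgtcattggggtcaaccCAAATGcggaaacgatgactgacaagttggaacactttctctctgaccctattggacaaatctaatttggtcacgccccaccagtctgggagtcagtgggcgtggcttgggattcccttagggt
Cox7a2, chr9:79759854-79760103, minus strand: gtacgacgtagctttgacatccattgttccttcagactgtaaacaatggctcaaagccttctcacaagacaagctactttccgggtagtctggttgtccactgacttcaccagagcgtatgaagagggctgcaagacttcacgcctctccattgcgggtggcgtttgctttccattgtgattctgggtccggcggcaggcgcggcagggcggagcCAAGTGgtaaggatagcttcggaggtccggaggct
Cox8b, chr7:140900447-140900696, minus strand: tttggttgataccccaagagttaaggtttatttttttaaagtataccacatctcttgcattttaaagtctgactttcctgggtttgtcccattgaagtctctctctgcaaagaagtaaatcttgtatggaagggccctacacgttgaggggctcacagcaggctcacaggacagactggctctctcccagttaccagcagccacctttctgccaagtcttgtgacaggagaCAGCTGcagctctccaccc
Cox8a, chr19:7217617-7217866, minus strand: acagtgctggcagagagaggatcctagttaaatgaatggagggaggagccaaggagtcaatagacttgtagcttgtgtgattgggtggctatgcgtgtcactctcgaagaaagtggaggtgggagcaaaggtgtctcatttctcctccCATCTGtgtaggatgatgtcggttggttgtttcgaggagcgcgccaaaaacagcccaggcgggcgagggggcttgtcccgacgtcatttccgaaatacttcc

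Each of the 4 windows held 1 match to CANNTG. Such a match was found in 19 of 28 members (67.9%) and in 69.3% of 27025 genes with a promoter entry, a share close to that of all genes. The MEF2 motif of muscle genes was searched as YTAWWWWTAR on both strands. There Y is C or T, W is A or T and R is A or G. This motif was found in 0 of 28 members and in 3.42% of all genes. The motif of NRF1, a factor known for nuclear genes of the respiratory chain, was searched as CGCATGCG, which reads the same on both strands. It was found in 5 of 28 members (Cox6a1, Atp5g2, Atp5j, Atp5k and Atp5l; 17.9%) and in 1.75% of all genes. The motif of GABP (also called NRF2), searched as CCGGAAG on both strands, was found in 8 of 28 members (28.6%) and in 7.83% of all genes. These 8 were Uqcrh, Uqcr11, Cox6a1, Cox6b1, Atp5e, Atp5h, Atp5j and Atp5l, and Cox6a1, Atp5j and Atp5l held both motifs. Other motifs were also searched in these windows. The ERR motif was found in 2 of 28 members (7.14%) and in 4.70% of all genes. The YY1 motif was found in 1 of 28 members (3.57%) and in 5.18% of all genes. The GC box was found in 6 of 28 members (21.4%) and in 35.4% of all genes. The CCAAT motif was found in 15 of 28 members (53.6%) and in 37.5% of all genes. The TATA motif was found in 1 of 28 members (3.57%) and in 14.3% of all genes. A match is a description of letters and does not show that a factor binds. The NRF1 match, in capitals, is shown for the 3 members below as an example in a ubiquitous complex IV isoform, a c subunit gene and a small membrane subunit of ATP synthase.

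Cox6a1, chr5:115349092-115349139, minus strand: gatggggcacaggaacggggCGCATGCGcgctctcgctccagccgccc
Atp5g2, chr15:102671061-102671108, minus strand: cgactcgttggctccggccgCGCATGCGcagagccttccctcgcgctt
Atp5k, chr5:108434421-108434468, minus strand: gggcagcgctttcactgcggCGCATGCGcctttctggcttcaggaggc

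Together the 38 genes took 4.01% ± 0.134 of all sham counts, and 36 of them averaged at least 100 CPM. The share was 3.98%, 4.16% and 3.90% in sham 1, 2 and 3. ATP synthase took 2.35% ± 0.0932, complex IV 0.943% ± 0.0267 and complex III 0.719% ± 0.0267. The ATP synthase genes therefore held 2.49 ± 0.0505 counts for each complex IV count, and the ratio ran from 2.43 to 2.53 between hearts. The members below 100 CPM were Cox6a1 at 82.3 ± 9.22 CPM and Cox4i2 at 8.68 ± 2.24 CPM, both isoforms that give way to another form in heart. Of the 38 genes, 32 were among the 500 highest of the table and 9 among the 100 highest.

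**Figure D1:**
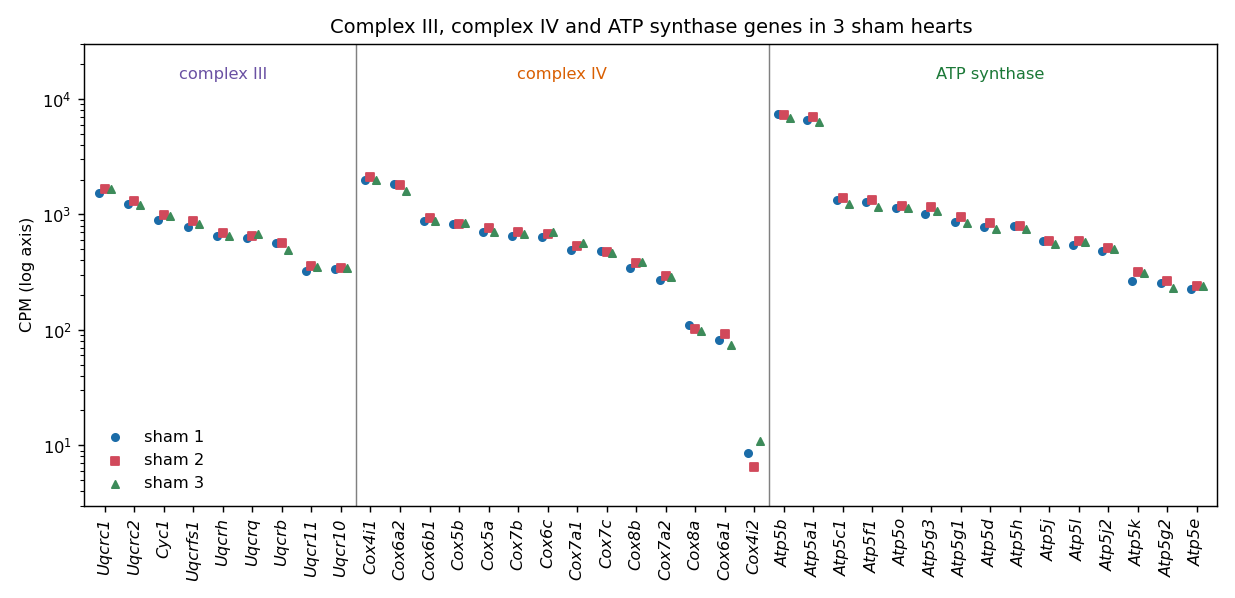
Level of each of the 38 genes in CPM (log axis), 1 symbol per sham heart, grouped by complex and ordered by mean within it. Atp5b and Atp5a1 stand at the top with 7179 and 6604 CPM, and Cox4i2 at the bottom with 8.68 CPM.

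In complex III, Uqcrc1 and Uqcrc2, the large core subunits on the matrix side, took the most counts. Uqcrc1 averaged 1614 ± 78.9 CPM, with 1523, 1665 and 1653 CPM in sham 1, 2 and 3. Uqcrc2 averaged 1249 ± 52.9 CPM, with 1224, 1309 and 1213 CPM. Cyc1, which carries the cytochrome c1 haem, gave 9301, 10385 and 12304 counts, or 950 ± 55.1 CPM. Uqcrfs1, the Rieske iron-sulphur protein that moves electrons towards cytochrome c1, gave 8237, 9169 and 10452 counts, or 829 ± 44.8 CPM. Both were lowest in sham 1 and highest in sham 2.

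The small complex III subunits lay between 342 and 668 CPM. Uqcrh, the acidic hinge protein near cytochrome c1, was at 668 ± 25.1 CPM, Uqcrq at 656 ± 24.9 and Uqcrb at 542 ± 42.3. Uqcr11 and Uqcr10, small membrane-bound subunits, were at 343 ± 14.9 and 342 ± 5.74 CPM. Small genes give fewer counts for the same number of molecules, so genes are also compared after division by transcript length, as CPM per kb. Orders, shares and ratios given in counts or CPM are not divided by length and carry the lengths of the genes.

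Per kb the complex III genes were within 608 and 1620. Uqcrq was the highest at 1620 ± 61.6 CPM per kb, and Uqcrfs1 and Cyc1 were the lowest at 608 ± 32.9 and 625 ± 36.3. The core subunit Uqcrc1 stood at 976 ± 47.7 CPM per kb and Uqcrc2 at 659 ± 27.9, a ratio of 1.43, 1.46 and 1.56 in sham 1, 2 and 3. The place of Uqcrq depends on the transcript taken, since its transcripts of equal standing differ in length (405 and 1521 bases). With the longer one it fell from position 5 to 32 of the 38.

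Complex IV levels ran from 11.9 to 2721 CPM per kb, and both ends were isoforms of subunit 4. Cox4i1, the form of subunit 4 found in most tissues, took the most counts, with 20817, 22262 and 24967 counts, or 2027 ± 85.2 CPM. Cox6a2, the muscle form of subunit 6a, followed with 19174, 19013 and 20095 counts, or 1744 ± 137 CPM. The subunits with 1 listed gene ran from Cox7c at 475 ± 10.7 CPM to Cox6b1, which faces cytochrome c, at 898 ± 33.5. Between them stood Cox5b, the zinc-binding subunit, at 829 ± 11.0 CPM, Cox5a at 727 ± 36.3, Cox7b at 681 ± 29.8 and Cox6c at 673 ± 30.4. Cox5b was the steadiest of all members, with a coefficient of variation (CV) of 1.33% over the 3 hearts.

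The muscle form led at each of the 3 positions that have one. At position 6a the ratio of Cox6a2 to Cox6a1 counts was 22.3, 19.8 and 21.6 in sham 1, 2 and 3. Cox6a2 thus made 95.5% ± 0.272 of the pair, and 94.7% when both are divided by transcript length. Cox6a1 itself gave 859, 961 and 929 counts.

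At position 7a the ratio of Cox7a1 to Cox7a2 was smaller, at 1.83, 1.82 and 1.98. Cox7a1, the heart and muscle form, gave 5153, 5611 and 7140 counts, and Cox7a2, known as the liver form, gave 2820, 3082 and 3606. The muscle share was 65.2% ± 1.07 by count and 75.9% ± 0.863 per transcript length. At position 8 the ratio of Cox8b to Cox8a was 3.11, 3.69 and 3.95. Cox8b, the heart and muscle form in rodents, gave 3587, 3945 and 4915 counts, and the ubiquitous Cox8a gave 1153, 1070 and 1243. The muscle share was 78.1% ± 2.14 by count and 84.4% ± 1.64 per transcript length.

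The ranges of the 3 muscle shares did not overlap between positions, so the order 6a, 8, 7a held in each heart on both scales. Within a position the hearts differed by little. The exact 95% binomial interval of the Cox7a1 share was 63.6% to 65.7% in sham 1 and 65.5% to 67.3% in sham 3. For Cox8b it was 74.4% to 76.9% in sham 1 and 78.8% to 80.8% in sham 3. These intervals cover counting error only. The Cox8b share was therefore lower in sham 1 by more than the counting error, while the CV of its ratio over hearts was 12.0%.

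At position 4 the ubiquitous form was the leading one. Cox4i2, a form known from lung, from vessel-associated cells and from low oxygen, gave 90, 68 and 139 counts beside the 20817 to 24967 of Cox4i1. Cox4i1 made 99.6% ± 0.125 of the pair by count and 99.6% ± 0.128 per transcript length. Cox4i2 had the highest CV of all members, 25.8%, and its exact 95% counting interval was 5.04 to 8.23 CPM in sham 2, below the lower bound of 9.22 CPM in sham 3. It was the only member lowest in sham 2.

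**Figure D2:**
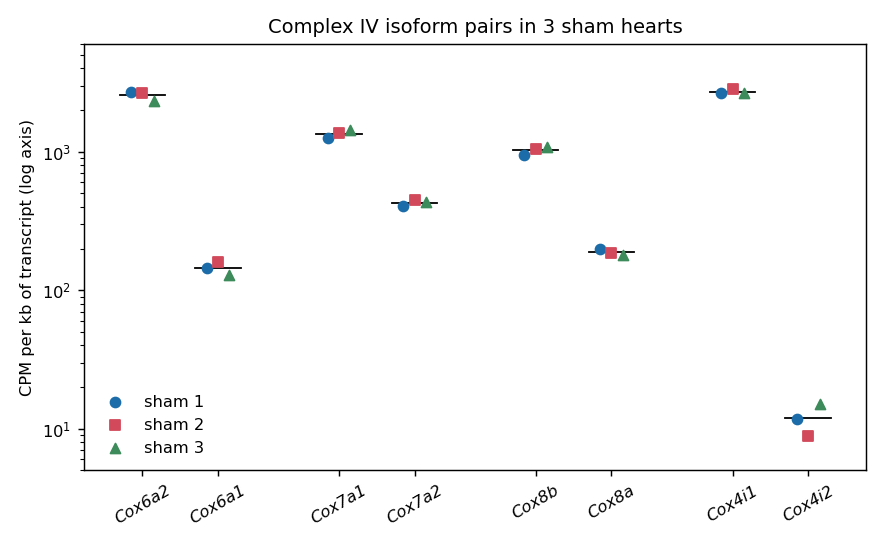
Level of each complex IV isoform in CPM per kb of transcript (log axis), 1 symbol per sham heart, with a line at the mean. The muscle form stands above its partner in the first 3 pairs, and Cox4i1 at 2721 CPM per kb stands above Cox4i2 at 11.9.

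Markers of pericytes and smooth muscle, cells that are known to express Cox4i2, were read beside it. All 11 were at 1 CPM or more, and 8 of 11 were lowest in sham 2 and 9 of 11 highest in sham 3, as Cox4i2 was. Of all 8864 genes at 10 CPM or more, 4043 were lowest in sham 2 and 3510 (39.6%) highest in sham 3. Cox4i2, at 8.68 CPM, and the markers Higd1b and Cnn1, at 5.25 and 5.51 CPM, are below that mark. Macrophage (8 of 8), fibroblast (6 of 8) and endothelial (5 of 8) markers were also highest in sham 3, and all of them lowest in sham 2. None of the 7 atrial and 10 ventricular markers was highest in sham 3. The summed share of the pericyte and smooth muscle list was 0.166%, 0.171% and 0.202% in sham 1, 2 and 3. The sham 3 to sham 2 ratio was 1.69 for Cox4i2, 1.24 for Kcnj8, a potassium channel of pericytes, and 0.989 for Rgs5, a pericyte signalling regulator. It was 1.74 for the smooth muscle actin Acta2 and 3.06 for the smooth muscle myosin Myh11. Their part in the Cox4i2 values was not tested, and in bulk heart samples fewer cells of a type and less RNA per cell cannot be told apart.

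Brown fat also makes Cox7a1 and Cox8b, and skeletal muscle makes all 3 muscle forms. Ucp1, the uncoupling protein that defines brown fat, gave 0 counts in each heart, and 3 counts, the limit that a count of 0 allows, come to 0.286 CPM at the lowest depth. Other genes of the brown fat list were detected: 6 of 9 had a mean of 1 CPM or more, Cox7a1 and Cox8b included. Cidea, a lipid droplet protein, gave 228, 316 and 380 counts in sham 1, 2 and 3, and Dio2, a thyroid hormone deiodinase, gave 42, 13 and 116. The fat cell genes Adipoq and Plin1 gave 30, 2 and 27 and 28, 4 and 28 counts, lowest in sham 2. By CPM Cidea, like Cox7a1 and Cox8b, was lowest in sham 1, and the part of fat cells in the levels of these isoforms was not tested. Of 8 skeletal muscle markers, 1 averaged at least 1 CPM (Ryr1, at 1.05 CPM), and the fast myosins Myh1, Myh2 and Myh4 gave 0 counts. All 10 ventricular cardiomyocyte markers averaged at least 1000 CPM, from Ryr2 at 2150 to Myh6 at 38127 CPM.

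Each complex IV position is filled once per enzyme, so isoforms were summed per position and set beside each other per kb. The 10 positions ran from 680 ± 29.8 CPM per kb for Cox7b to 2733 ± 112 for Cox4, a span of 4.02-fold. Position 6a was close to the top at 2708 ± 214 and overlapped Cox4 between hearts. Position 7a stood at 1778 ± 107 and position 8 at 1213 ± 55.2. The summed level at position 7a was above each of Cox5a, Cox5b, Cox6b1, Cox6c, Cox7b and Cox7c in every heart. Per kb of coding sequence the order differed. The span was then 3.76-fold, position 6a at 6237 ± 492 stood above Cox4 at 4016 ± 164, and position 7a at 3345 ± 191 was below Cox6b1 at 3480 ± 130.

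In ATP synthase, Atp5b and Atp5a1, the beta and alpha subunits that form the catalytic head, took more counts than any other member. Atp5b gave 77884, 75626 and 87253 counts, or 7179 ± 274 CPM. Atp5a1 gave 68718, 73021 and 79636 counts, or 6604 ± 345 CPM. Beta was above alpha in each heart, by 1.13, 1.04 and 1.10 times in counts and by 1.46, 1.34 and 1.41 times per transcript length. The pair made 58.7% ± 0.641 of all ATP synthase counts. Both subunits are present in several copies per enzyme, whereas the stalk subunits are not.

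The central stalk turns inside the head. Atp5c1, its gamma subunit, was at 1318 ± 79.0 CPM, Atp5d (delta) at 791 ± 51.7 and Atp5e (epsilon) at 236 ± 6.91. The peripheral stalk holds the head still. Atp5f1 (subunit b) was at 1258 ± 90.3 CPM, Atp5o (OSCP, which joins the stalk to the head) at 1156 ± 33.0, Atp5h (subunit d) at 777 ± 30.4 and Atp5j (F6) at 575 ± 20.2. Per kb the peripheral stalk genes lay between 710 and 1379 and the central stalk genes between 560 and 1130, so these parts overlapped. The small membrane subunits Atp5l (g), Atp5j2 (f) and Atp5k (e), of which e and g are known from the dimer interface of the enzyme, were at 572 ± 24.8, 498 ± 15.6 and 298 ± 28.6 CPM.

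The ring of c subunits is encoded by 3 genes whose mature proteins are known to be identical, with different import signals. Atp5g3 gave 10622, 12038 and 13480 counts and Atp5g1 gave 9006, 10017 and 10719. Atp5g2 gave 2658, 2802 and 2895 counts. Atp5g3 made 48.6% ± 1.06 of the c subunit counts, Atp5g1 40.1% ± 0.461 and Atp5g2 11.3% ± 0.621, in the same order in each heart. Per transcript length Atp5g3 and Atp5g1 overlapped, at 42.3% ± 1.09 and 41.8% ± 0.326, while Atp5g2 was at 15.9% ± 0.810. The Atp5g1 share depends on its transcript, which is 596 bases here and 4715 in its longest form of equal standing, and with the longest forms it was 9.24%. The 3 genes summed to 3562 ± 224 CPM per kb, beside 3747 ± 143 for Atp5b and 2673 ± 140 for Atp5a1.

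Over all 38 genes the order per kb began with Atp5b at 3747 ± 143, which did not overlap the next gene. Per kb of coding sequence Cox6a2 came first at 5992 and Atp5b second at 4524. Per kb of transcript, Cox4i1 (2721 ± 114), Atp5a1 (2673 ± 140) and Cox6a2 (2564 ± 201) followed Atp5b, and neighbours among these overlapped between hearts. The next gene, Uqcrq, was lower without overlap at 1620 ± 61.6. From there the levels fell in small steps, and of all 37 neighbouring pairs 26 overlapped. The lowest 4 genes were all isoforms that a partner exceeds, namely Cox7a2 (429 ± 19.3), Cox8a (188 ± 11.0), Cox6a1 (144 ± 16.1) and Cox4i2 (11.9 ± 3.08), and none of these overlapped its neighbour. Cox8a, Cox6a1 and Cox4i2 were also the lowest 3 per coding kb and with the longest transcripts, whereas Cox7a2 was then at position 30 and 33 of the 38.

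The members were set beside other genes of the pathway from fixed lists. The median level per kb was 788 in complex III, 992 in complex IV and 1051 in ATP synthase. It was 360 for 36 complex I genes, the lowest being Ndufc1 at 88.1 per kb, and 601 for the 4 complex II genes. Per kb of coding sequence the 3 complexes were at 1628, 2176 and 1773 and complex I and II at 687 and 1135. All 36 complex I genes and all 4 complex II genes averaged at least 100 CPM. Member counts stood at 2.88 ± 0.0474 for each complex I count, with 2.92, 2.90 and 2.83 in sham 1, 2 and 3.

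Assembly factors, which insert cofactors or put subunits together and are not part of the finished enzyme, were lower. Of 6 complex III factors 1 reached 100 CPM, Uqcc1 at 204 ± 17.2, and the lowest was Lyrm7, a Rieske protein chaperone, at 26.0 ± 3.09. Of 22 complex IV factors 3 reached 100 CPM, namely Lrpprc, which stabilises mitochondrial mRNA, at 295 ± 19.4, Coa5 at 230 ± 20.7 and the copper chaperone Cox17 at 120 ± 11.0. The 3 ATP synthase factors were at 41.1 (Atpaf1), 42.0 (Atpaf2) and 89.3 CPM (Tmem70). Median levels per kb were 31.2, 19.2 and 23.2 for the 3 lists of factors. Sco2, a copper chaperone needed for complex IV, gave 0, 1 and 0 counts, and Cox16 gave 9, 11 and 16. In the annotation used, exons of Sco2 overlap Tymp and Ncaph2 and those of Cox16 overlap Gm20498, and the part of this overlap in the low counts was not tested.

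**Figure D3:**
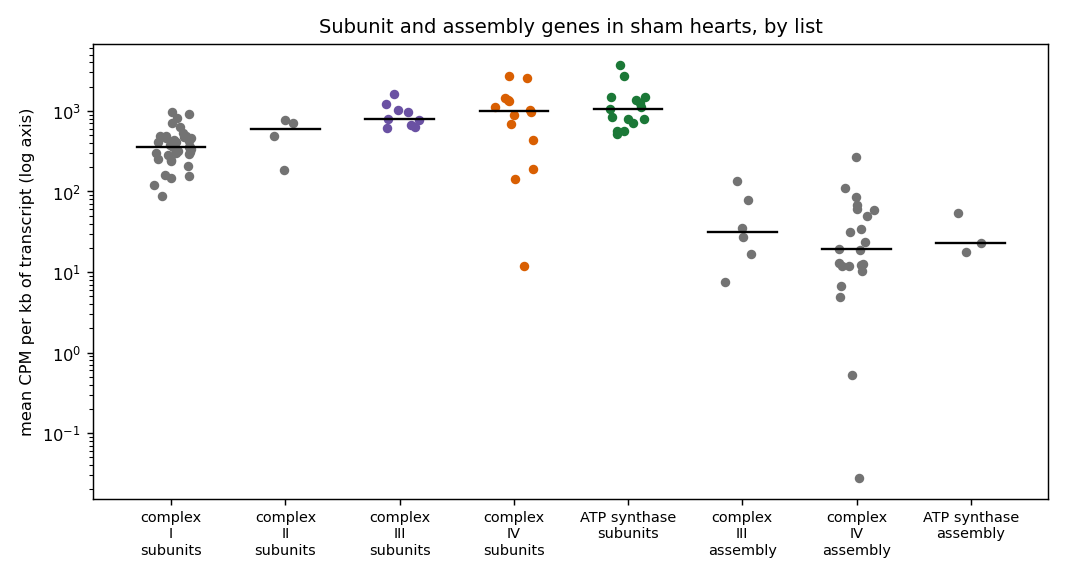
Mean CPM per kb of transcript (log axis) of each gene in the lists of subunits (complexes I to IV and ATP synthase) and of assembly factors, with a line at the median of each list. The 3 member lists have medians of 788, 992 and 1051, and the 3 lists of assembly factors 31.2, 19.2 and 23.2.

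Other subunits and isoforms outside the 38 were found for 11 of 12 names, 4 of them by synonym. Ndufa4, now counted as a complex IV subunit, was at 660 ± 19.5 CPM. Cycs, the somatic cytochrome c that links complex III to complex IV, was at 523 ± 27.3. Atp5md and Atp5mpl, small ATP synthase membrane proteins, were at 303 ± 9.42 and 196 ± 8.19 CPM, and the inhibitor Atpif1 at 120 ± 7.95. Cox7a2l, known for its role in supercomplexes of complexes III and IV, was at 220 ± 21.8. The forms known from testis were near the floor, with 13, 12 and 20 counts for Cox6b2, 11, 4 and 6 for Cyct, and 0, 2 and 1 for Cox7b2.

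The members varied little between the sham hearts. Their median CV was 4.71%, and 36 of 38 were under 10%. Over all 1698 genes at 100 CPM or more the median CV was 7.18%. In the complex I and complex II lists it was 4.81% and 5.19%, close to that of the members. Counting error alone gave 0.353% to 10.4% per member, the largest for Cox4i2. The other member over 10% was Cox6a1 (11.2%), with 859, 961 and 929 counts and its highest CPM in sham 2. Within ATP synthase the CV ran from 2.86% for Atp5o to 9.60% for Atp5k.

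The members tended to be highest in the same heart. Sham 2 gave the highest CPM for 26 of 38 members (68.4%), against 37.1% of all 1698 genes at 100 CPM or more. The members were not alone in this, since 21 of 36 complex I genes and all 4 complex II genes were also highest in sham 2. Sham 1 led for 5 members and sham 3 for 7. By complex, 13 of 15 ATP synthase genes, 7 of 9 complex III genes and 6 of 14 complex IV genes were highest there. The median log2 difference of sham 2 from sham 1 was 0.09 over the members, and that of sham 3 from sham 2 was -0.07. Scaled with TMM factors, 36 of 38 were highest in sham 2, all but Cox4i2 and Cox8a, against 60.5% of all genes at 100 CPM or more on that scale, and the members' median log2 difference from sham 1 was 0.19. The same scaling moved the median of all genes at 100 CPM or more from 0.00 to 0.09.

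Cell type markers also differed between these hearts. Sham 2 had the highest share of the ventricular cardiomyocyte list, 11.9% of counts beside 10.9% and 10.7% in the first and the third heart. Of its 10 genes 9 were highest there. The exception was Myl2, highest in sham 1, at 11812, 10810 and 10565 CPM in sham 1, 2 and 3. All 8 fibroblast, 8 endothelial and 8 macrophage markers were lowest in sham 2 by CPM, as were 4043 of all 8864 genes at 10 CPM or more. Of these markers Tcf21 and Cd14, at 8.50 and 8.03 CPM, are below that mark. The fibroblast share was 0.191%, 0.0964% and 0.224% in sham 1, 2 and 3, and the atrial share was 0.269%, 0.00919% and 0.0547%. For each 100 counts of the ventricular list, the members held 36.3, 34.9 and 36.3 counts, so on this scale sham 2 was the lowest heart. This scale leans on Myh6, the highest gene of the list, at 34590, 42320 and 37473 CPM in sham 1, 2 and 3. With Myh6 taken out of the list, sham 1 in place of sham 2 would be the lowest heart, so the order rests on that gene. The part of cell makeup in the member levels was not tested.

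**Figure D4:**
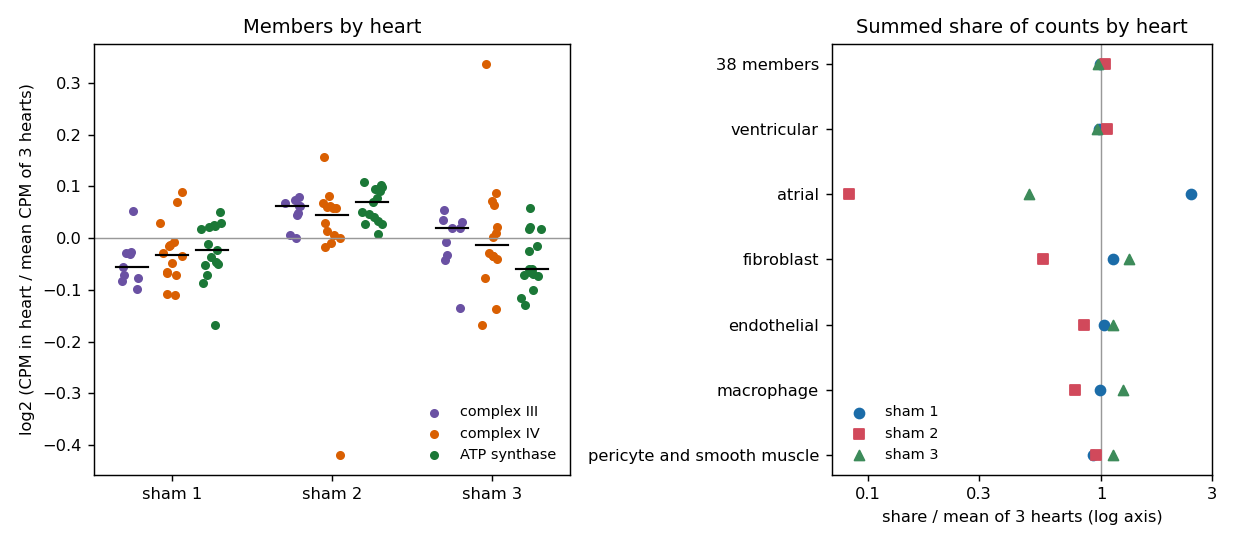
Left, log2 of each member's CPM in a heart over its mean in 3 hearts, by complex, with a line at the median. Right, summed share of counts in each heart over the mean of the 3 hearts (log axis) for the 38 members and for cell type marker lists, where sham 2 is highest for the members and the ventricular list and lowest for atrial, fibroblast, endothelial and macrophage markers.

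By CPM the 3 muscle forms were each highest in another heart than sham 2, while with TMM scaling all 3 were highest in sham 2. In CPM, Cox7a1 and Cox8b were lowest in sham 1 and highest in sham 3, at 492, 536 and 564 CPM for Cox7a1 and 342, 377 and 388 CPM for Cox8b. Cox6a2 was highest in sham 1 and lowest in sham 3, at 1829, 1815 and 1586 CPM. The ubiquitous Cox8a was likewise highest in sham 1, at 110, 102 and 98.1 CPM. Sham 1 held the largest atrial share, and the part of atrial tissue in these values was not tested.

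Some member levels are less certain than their counts. In GENCODE M21, 9 of 38 members had at least 1 other gene whose transcript matched theirs at 95% identity over 50% of the length, most of them pseudogenes. They were Uqcrb, Cox7c, Atp5c1, Atp5g1, Atp5g2, Atp5h, Atp5k, Atp5l and Atp5o, with 9 copies for Atp5l. How reads shared with such copies were counted is not stated. Exons of 13 members overlapped another gene, 11 of them on the opposite strand only (Cox6a2 with Itgad and Cox4i1 with Emc8, for example). Strandedness is not stated either, so reads of such partners cannot be told apart.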

How the data were processed

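Gene-level RNA levels were taken from 1 table of raw counts that the authors deposited, with 1 column per heart and 1 row per gene symbol, as whole numbers. Trimmomatic, HISAT2, HTSeq and DESeq are named with build mm9, per the submitters' processing notes. For these tools no version, setting, strand option or annotation is given in the sources used here. The members and gene lists were chosen with earlier results of these data known. All 38 members are named. For other lists the rule was counts, the highest and lowest 2 genes by sham mean, and markers needed beside a member result. It was followed in part: several lists are given by counts or shares alone, further genes were chosen after their values were seen, and 1 gene is not reported here.

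CPM is the count over the column total, times 1000000, without a filter on low counts. Totals ranged from 10474487 to 12669724 in the sham columns. No test across genes was made, since only the sham columns were used. TMM factors came from edgeR 4.0.16 in R 4.3.3. Transcript lengths came from GENCODE M21 (GRCm38), as the shortest of the best-supported principal transcripts, and coding lengths from its coding exons in place of proteins. Coordinates are given only for the RefSeq promoter sequences, in GRCm38.p6 and not in the build named for the counts. Near copies were searched with blastn 2.17.0, and binomial and Poisson intervals (95%, exact) computed with scipy 1.17.1. The level calculation was tested on simulated data. Alternatives were each heart left out, TMM, a total without the 10 highest genes, and other lengths.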

Additional observations from a re-analysis of the deposited data

How the results depend on the processing

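No paired analysis was possible because no comparison between groups was made. Leaving out 1 of 3 hearts, or TMM scaling, moved each member level and each share of counts by less than 1 SD, and leaving out 1 heart of 3 cannot move a mean by 1 SD, so it says nothing about stability. With the 10 highest genes taken out of the total, among them Atp5b itself, the shares rose to 0.838% (complex III), 1.10% (complex IV), 2.73% (ATP synthase) and 4.67% (all members), and 37 of 38 levels moved by more than 1 SD, since the total is smaller. Per transcript length the shares within a pair or group were 94.7% (Cox6a2), 75.9% (Cox7a1), 84.4% (Cox8b), 41.8% (Atp5g1), 15.9% (Atp5g2) and 42.3% (Atp5g3). For these shares, coding length and the longest transcript were chosen after seeing the data, as was the longest transcript for member levels. Per coding length, Cox6a2 in place of Atp5b led the order of all members, at 5992 against 4524 CPM per coding kb. By share per coding length Cox6a2 was at 96.1% and Atp5g1 at 41.1%. Per length of the longest transcript the shares were 94.7% (Cox6a2), 75.9% (Cox7a1), 84.4% (Cox8b), 9.24% (Atp5g1), 16.8% (Atp5g2) and 74.0% (Atp5g3). The leading form of each complex IV pair was the same on all of these scales. Depth limits the forms with few counts, and by the exact 95% interval a gene at 0 could reach 0.352 CPM unseen in sham 2.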
